A study of Homo sapiens with 2 samples.

Results

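The genes described here are the numbered cadherins (CDH followed by a number) and the protocadherins (symbols starting PCDH, without PCDH11X and PCDH11Y). They were chosen by symbol alone, and 92 of the 25702 gene features counted are of this kind, 23 cadherins and 69 protocadherins. RNA came from REH (labelled REH-R), an established line of human acute lymphoblastic leukaemia of early B cells (B-ALL). One culture carried a tetracycline-regulated cassette that encodes the transcription factor PAX5 and, after an internal ribosome entry site (IRES), the fluorescent marker GFP, and the control culture carried IRES and GFP alone. Both received 1 µg/mL doxycycline for 3 days, and both were sorted for GFP before RNA extraction. Each group is 1 library, which leaves every difference without a replicate check, and no test across samples could be made. The labels do not say whether either culture was a single clone.

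Cadherins are calcium-dependent adhesion proteins that bind like molecules on neighbouring cells through repeated extracellular domains. Classical cadherins hold the actin cytoskeleton through catenins, while protocadherins lack the catenin-binding tail and are best known for self-recognition between neurons. Most protocadherins of the alpha, beta and gamma groups lie in 3 gene clusters side by side on chromosome 5. Each alpha or gamma gene contributes its own large first exon with its own promoter, which is then spliced to a set of constant exons common to the whole cluster. Beta genes have no constant exons. In many cell types only some promoters of a cluster are active. Lymphoid cells adhere mainly through integrins and selectins.

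The shared exon is shown here because it decides what a count per gamma gene can mean. In GENCODE v29 transcripts (GRCh38), the last 60 bases of the own exon of 4 gamma genes, in lower case, run into the same 59-base constant exon, in capitals (chr5:141494807-141494865, + strand), which 22 gamma genes use.
PCDHGA1: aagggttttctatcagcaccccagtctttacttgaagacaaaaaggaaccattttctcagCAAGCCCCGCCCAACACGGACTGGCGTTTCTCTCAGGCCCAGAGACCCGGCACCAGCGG
PCDHGB2: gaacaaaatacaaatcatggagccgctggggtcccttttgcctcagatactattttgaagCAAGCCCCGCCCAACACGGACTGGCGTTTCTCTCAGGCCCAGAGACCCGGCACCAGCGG
PCDHGA11: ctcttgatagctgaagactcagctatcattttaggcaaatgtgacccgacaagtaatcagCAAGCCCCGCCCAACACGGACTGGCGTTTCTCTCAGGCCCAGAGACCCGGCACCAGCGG
PCDHGC3: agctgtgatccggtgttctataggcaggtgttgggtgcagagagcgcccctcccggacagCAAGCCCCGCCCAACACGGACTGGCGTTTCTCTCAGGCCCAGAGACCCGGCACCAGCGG
The lower-case ends differ from gene to gene, and the capitals are identical. A PCDHGC3 transcript in that annotation has 2544 bases of its own and 2181 bases in 3 shared exons, so 46.2% of it is shared. PCDHGA3, PCDHGB1 and PCDHGB5 hold the same 3 exons and were listed at 0 in both libraries, so reads in shared exons were not credited to every gene that holds them. How the authors treated such reads is not given in the sources used here. The own exons are also alike in part. Of their 50-base words, 0% to 20.4% also occurred in another clustered gene for the gamma rows (median 5.05%), and 0% to 45.8% for the beta rows (median 14.1%), so reads could be split between near-identical copies or lost. For PCDHGC3 and PCDHGC4 the share was 0%, for PCDHGA11 1.20%, for PCDHGB2 12.1% and for PCDHB9 21.0%.

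Few of these genes were transcribed to a measurable degree. Of the 92 features, 46 had 0 counts in both libraries, 22 had 1 to 9 counts over both and 24 had at least 10, the minimum for a ratio to be judged. That is 26.1% of them, against 52.6% of all features. At a floor of 3 counts, a count of 0 allows up to 0.252 CPM (counts per 1000000, after scaling) with PAX5 and up to 0.272 CPM in the control. The deposited counts summed to 11944765 and 10997864. The cadherin and protocadherin features together had 2437 counts with PAX5 (205.0 CPM) and 2409 without (218.0 CPM), and protocadherins gave 91.3% and 90.9% of them.

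PAX5 itself, counted without separating the cassette from the endogenous gene, had 699.7 CPM against 241 CPM in the control, 2.91-fold higher (2.78 to 3.04). Of 14 markers of B-cell precursor leukaemia, 12 had at least 1 CPM in both libraries. The 2 others were VPREB1, with 17 and 7 counts, and the progenitor marker CD34, with 1 and 0 counts. Of 9 epithelial markers, 6 were at 0 in both libraries, EPCAM among them, as were 5 of 6 T-cell markers and the 4 erythroid markers. The 6 myeloid markers summed to 66.6 CPM with PAX5 and 132 CPM without. The granule enzyme MPO had 554 and 1138 counts, ITGAM 222 and 278 and CSF1R 14 and 41, while ELANE was at 0 in both and CD14 and LYZ had at most 3. Of 6 mesenchymal markers, which summed to 49.6 and 59.5 CPM, PDGFRB (473 and 563 counts) and COL1A1 (115 and 93) were counted, and the 7 neuronal markers summed to 26.7 and 20.3 CPM, nearly all from SYT1 (302 and 211 counts). The part of these markers in the values of PCDHGC3 and PCDH12, which were also lower with PAX5, was not tested.

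None of the 24 measured genes passed the rule of size, which asks that the bound of the exact 95% counting interval nearest to equality lie at or beyond 2-fold. Over all 13532 features with at least 10 counts, 1.34% were called higher in the PAX5 library and 0.0517% lower, 1.4% together. Intervals cover counting error only and compare these 2 libraries. In bulk RNA, fewer cells of a type and less RNA per cell cannot be told apart. By ratio, 14 of the 24 were higher in the PAX5 library and 10 lower, with a median log2 ratio of 0.11, against -0.01 over all features tested. The interval lay above 0 for 1 of the 24 (PCDH9) and below 0 for 4 (PCDHGC3, PCDHGA11, PCDH12 and CDH23). Over all features tested these shares were 18.7% above and 16.8% below.

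Long genes had higher ratios in the PAX5 library in general, and cadherin genes are long. When all tested features were divided into 10 bins of nearly equal number by deposited length, 23 of the 24 lay in the 5 longest bins, whose median log2 ratios went from -0.01 in the shortest of these 5 to 0.19 in the longest. With each ratio set against the median of its own bin, the median of the 24 was 0.05 and 14 lay above their bin. The same 4 intervals lay below the median of the bin, and 0 lay above it.

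**Figure D1:**
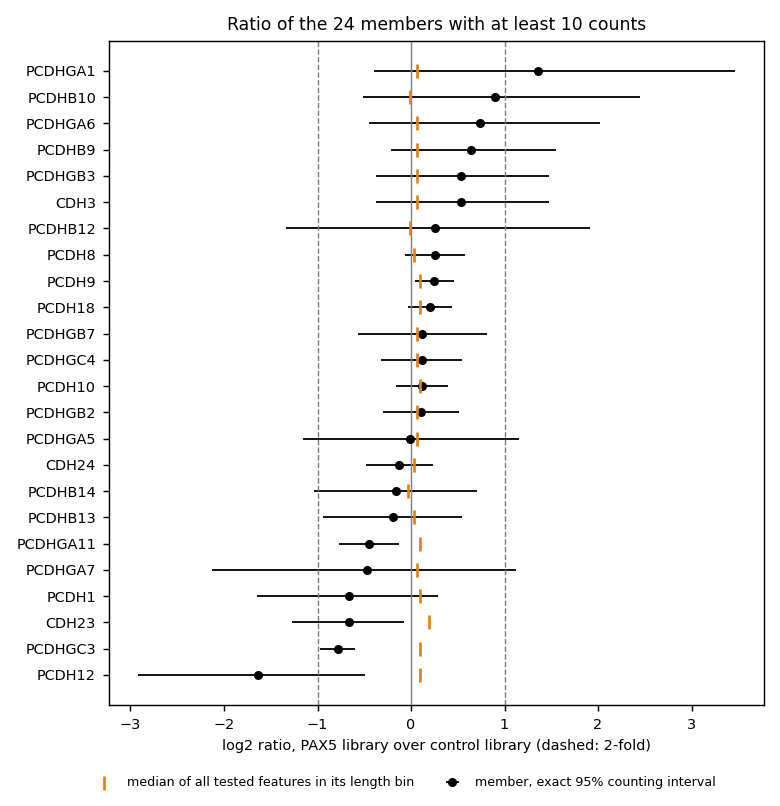
Log2 ratio of the PAX5 library over the control library (horizontal axis) for the 24 cadherin and protocadherin genes with at least 10 counts, 1 library per group. Points are ratios, bars are exact 95% counting intervals, orange marks are the median of all tested features in the same length bin, and dashed lines are 2-fold; PCDHGC3, PCDHGA11, PCDH12 and CDH23 have intervals below 0 and PCDH9 alone has one above.

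The gamma cluster held the most counts of the 3 clusters. PCDHGC3 (Entrez 5098), the first of the 3 C-type gamma genes, had 376 counts with PAX5 and 601 in the control, or 31.6 and 54.4 CPM. It was therefore lower with PAX5, by 1.72-fold (1.51 to 1.96), a log2 ratio of -0.78 (-0.97 to -0.59), short of the 2-fold bound. Its interval lay wholly beyond 1.5-fold, which was so for no other of the 24. Among 4578 features with between 0.5 and 2 times its counts, PCDHGC3 itself included, 10 had a ratio as low or lower (0.218%). Of the same features, 78 lay as far above 0, which is 1.70%. PCDHGC3 was singled out for this comparison after its values were seen.

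PCDHGA11 (Entrez 56105), an A-type gene, had 145 counts with PAX5 and 184 without. It was also lower with PAX5, with a log2 ratio of -0.45 (-0.77 to -0.13). PCDHGB2 (Entrez 56103), a B-type gene, had 111 and 96 counts, and PCDHGC4 (Entrez 56098), the neighbour of PCDHGC3, had 99 and 85. Their log2 ratios of 0.10 (-0.30 to 0.51) and 0.11 (-0.32 to 0.55) lay on the other side of 0 with intervals that include it. PCDHGC4 and PCDHGC3 lie next to each other, and the upper bound of PCDHGC3 lay below the lower bound of PCDHGC4.

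The other 6 measured gamma genes had 15 to 76 counts over both libraries, and each interval included 0. PCDHGB7 had 41 and 35 counts, PCDHGB3 28 and 18, and PCDHGA6 18 and 10. PCDHGA5 had 15 and 14 counts, with a log2 ratio of -0.0063 that became 0.0079 with DESeq2 size factors. PCDHGA1, with 11 against 4 counts, had the highest ratio of all 24, 1.35 on the log2 scale, with an interval from -0.40 to 3.46. PCDHGA7 had 7 and 9 counts. Of the other gamma genes, 9 had 1 to 9 counts, and PCDHGB4 with 6 against 1 was the only one of these with at least 5 in a library.

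Summed over its 23 rows, the gamma cluster had 877 counts with PAX5 and 1073 without, a log2 ratio of -0.40 (-0.53 to -0.27). Without PCDHGC3 the sums were 501 and 472, and the ratio was -0.02 (-0.20 to 0.17), so the lower sum rested on this 1 gene. PCDHGC3 made up 42.9% of all gamma counts in the PAX5 library (exact binomial 95% interval 39.6 to 46.2) and 56.0% in the control library (53.0 to 59.0), and these intervals do not overlap. The ratio of PCDHGC3 was 0.590 times that of the other gamma rows together (0.490 to 0.709, counting error only). PCDHGC3 was set apart from the other rows after its values were seen, so some difference from them follows from the choice. The intervals take no account of that choice. The share of PCDHGA11 was 16.5% (14.1 to 19.2) and 17.1% (14.9 to 19.5), with wide overlap. PCDHGB2 took 12.7% (10.5 to 15.0) and 8.95% (7.31 to 10.8), and PCDHGC4 11.3% (9.27 to 13.6) and 7.92% (6.38 to 9.70), and in both cases the intervals overlapped narrowly. Shares of the same total are tied, so a lower share of PCDHGC3 raises those of the others. By their own ratios, given above, the intervals of PCDHGB2 and PCDHGC4 included 0 and that of PCDHGA11 lay below 0.

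**Figure D2:**
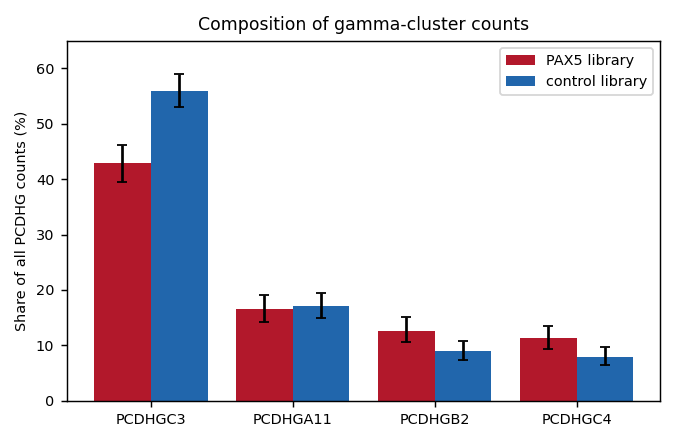
Share of all gamma-cluster counts (vertical axis, percent) taken by the 4 gamma genes with the most counts, with PAX5 and in the control. Bars are shares in 1 library each and black lines are exact binomial 95% intervals; PCDHGC3 takes 42.9% with PAX5 and 56.0% in the control, and the intervals of the other 3 genes overlap.

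In the beta cluster, the genes with counts formed a run. From PCDHB1 to PCDHB8, 9 rows in gene order with the pseudogene PCDHB17P among them, every row was at 0 in both libraries, and PCDHB16 next to them had 0 and 1 counts. From PCDHB9 to PCDHB14 each gene had counts in both libraries, and beyond them PCDHB18P, PCDHB19P and PCDHB15 had 1 or 2 counts over both. PCDHB13 (Entrez 56123) had 32 counts with PAX5 and 34 without, PCDHB9 (Entrez 56127) had 32 and 19, and PCDHB14 (Entrez 56122) had 24 and 25. These 3 genes made up 76.5% and 81.3% of the beta counts. PCDHB10 had 14 and 7 counts, PCDHB12 9 and 7, and PCDHB11 2 and 1. All 5 intervals of measured beta genes included 0, with log2 ratios from -0.19 (PCDHB13) to 0.89 (PCDHB10, -0.51 to 2.44). The 19 rows summed to 115 and 96 counts, a log2 ratio of 0.15 (-0.25 to 0.56).

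The alpha cluster was not detected. All 15 alpha genes and the record of the alpha constant region, PCDHACT, had 0 counts in both libraries. How reads in shared exons were treated is not given, so the 0 of PCDHACT cannot by itself show that no such reads were present. Alpha transcripts in GENCODE v29 carry 2866 to 2869 bases of shared exons and own exons of 2352 to 3427 bases.

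**Figure D3:**
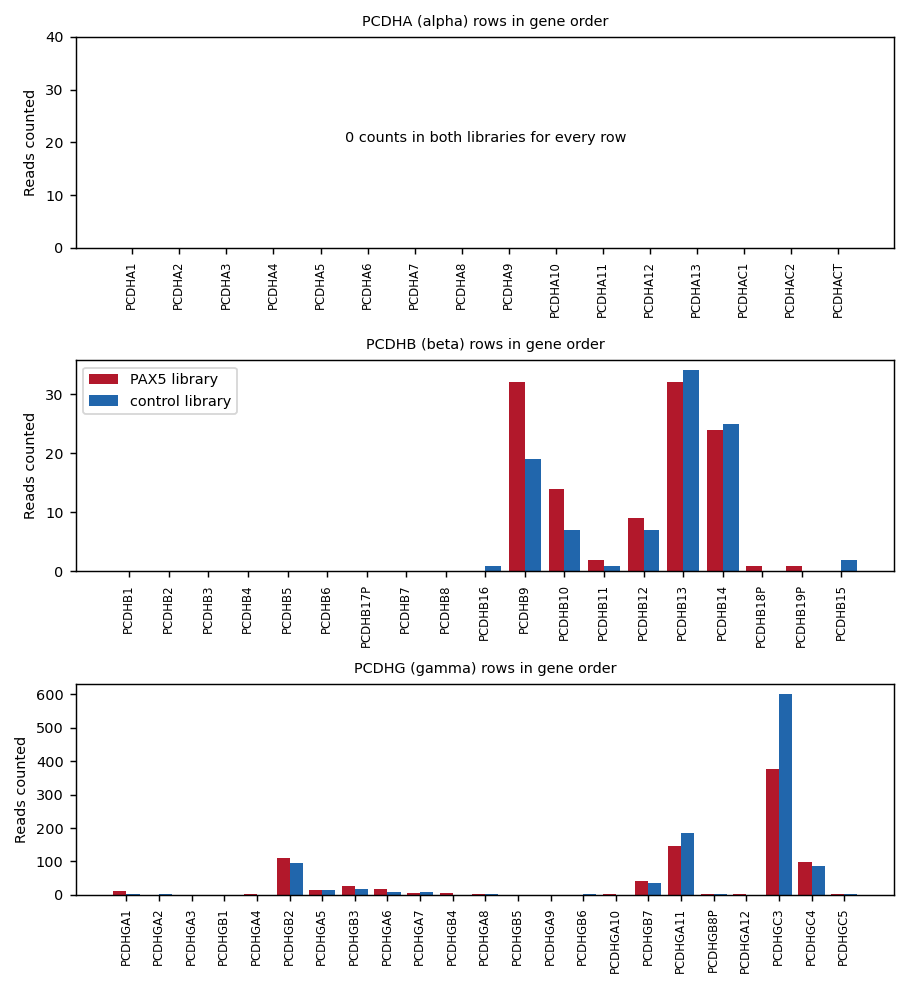
Reads counted (vertical axis, a different range in each panel) for every row of the alpha, beta and gamma protocadherin clusters in gene order, in the PAX5 library and the control library. Alpha rows are all at 0, beta counts run from PCDHB9 to PCDHB14, and gamma counts are led by PCDHGC3 with 376 and 601.

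The promoters of clustered genes are shown because neighbouring genes of one cluster ranged from 0 to 977 counts over both libraries. RefSeq windows on GRCh38.p14, 250 bases before to 50 bases after the start, are printed for PCDHB8 and PCDHB9, which stand on either side of PCDHB16 (0 and 51 counts over both libraries), for PCDHGA3 (0 counts) and for the 3 gamma genes with the most counts. Most, but not all, clustered protocadherin promoters are known to share an element with the core CGCT. Capitals mark CGCT on either strand (CGCT or AGCG).
PCDHB8 (chr5:141177540-141177839, + strand): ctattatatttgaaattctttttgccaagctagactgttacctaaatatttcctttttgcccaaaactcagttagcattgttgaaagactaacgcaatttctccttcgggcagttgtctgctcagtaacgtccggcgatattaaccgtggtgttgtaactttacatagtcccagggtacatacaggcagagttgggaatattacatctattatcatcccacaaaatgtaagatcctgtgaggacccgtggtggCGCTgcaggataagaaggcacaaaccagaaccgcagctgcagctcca
PCDHB9 (chr5:141186911-141187210, + strand): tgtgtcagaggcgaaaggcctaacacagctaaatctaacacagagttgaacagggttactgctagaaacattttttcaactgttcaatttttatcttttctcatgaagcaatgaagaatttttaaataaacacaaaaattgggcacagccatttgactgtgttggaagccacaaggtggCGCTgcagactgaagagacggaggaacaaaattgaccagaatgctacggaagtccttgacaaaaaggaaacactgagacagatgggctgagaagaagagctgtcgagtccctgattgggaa
PCDHGA3 (chr5:141343579-141343878, + strand): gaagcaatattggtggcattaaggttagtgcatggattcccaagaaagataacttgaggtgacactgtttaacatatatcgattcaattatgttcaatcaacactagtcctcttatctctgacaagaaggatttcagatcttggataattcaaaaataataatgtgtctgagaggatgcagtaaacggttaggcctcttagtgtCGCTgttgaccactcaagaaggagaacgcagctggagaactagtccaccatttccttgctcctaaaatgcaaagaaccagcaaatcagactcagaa
PCDHGB2 (chr5:141359886-141360185, + strand): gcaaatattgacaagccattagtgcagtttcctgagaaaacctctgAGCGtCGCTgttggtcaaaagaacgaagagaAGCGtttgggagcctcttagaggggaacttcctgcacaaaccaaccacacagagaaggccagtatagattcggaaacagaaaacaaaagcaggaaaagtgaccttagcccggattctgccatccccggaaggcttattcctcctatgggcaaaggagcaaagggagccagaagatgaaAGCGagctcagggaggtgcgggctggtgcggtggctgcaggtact
PCDHGA11 (chr5:141420801-141421100, + strand): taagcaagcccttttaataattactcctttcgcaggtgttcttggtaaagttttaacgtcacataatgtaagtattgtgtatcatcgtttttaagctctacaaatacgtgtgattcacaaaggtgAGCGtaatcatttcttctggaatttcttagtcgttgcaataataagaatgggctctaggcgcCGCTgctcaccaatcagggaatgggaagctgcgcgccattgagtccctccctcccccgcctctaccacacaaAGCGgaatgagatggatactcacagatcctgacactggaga
PCDHGC3 (chr5:141475716-141476015, + strand): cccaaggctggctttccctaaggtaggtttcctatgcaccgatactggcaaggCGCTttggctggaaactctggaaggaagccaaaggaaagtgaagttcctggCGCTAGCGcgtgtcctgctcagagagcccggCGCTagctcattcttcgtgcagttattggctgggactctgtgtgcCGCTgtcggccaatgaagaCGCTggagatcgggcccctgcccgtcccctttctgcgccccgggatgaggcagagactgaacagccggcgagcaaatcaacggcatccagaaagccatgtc
The 3 most counted gamma genes held 3 to 6 such matches in the window, and PCDHB8, PCDHB9 and PCDHGA3 held 1 each. On the gene strand alone PCDHGC3 held 5, and PCDHGB2 and PCDHGA11 held 1 each, as did PCDHB8, PCDHB9 and PCDHGA3. Matches were numbered only in these printed windows, so any relation of their number to counts was not tested. The letters are short and common, so a match alone does not identify the element. At least 1 match on either strand was found in 51 of 52 windows of clustered protocadherins (47 genes of the 58 matched a window) and in 70.0% of all 35116 windows in the table. It was present in 16 of 16 windows of clustered genes with at least 10 counts and in 24 of 25 windows of those at 0, so its presence did not separate them. Clustered windows with at least 10 counts held a median of 7.5 CG dinucleotides and those at 0 a median of 8, against 14 over all windows. Letters of one end of the PAX5 recognition sequence, GCGTGAC or GCGTAAC on either strand, which share letters with CGCT (AGCG on the other strand) where an A comes before them, occurred in 2.52% and 0.752% of all windows. Among cadherin and protocadherin genes GCGTGAC was found for PCDH9 and GCGTAAC for PCDHGC4, and for no other of the 68 genes with a window.

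Outside the clusters, 6 of 11 protocadherins were measured and the other 5 (PCDH7, PCDH15, PCDH17, PCDH19 and PCDH20) were at 0 in both libraries. PCDH9 (Entrez 5101), a delta-1 protocadherin, had 445 counts with PAX5 and 348 without, or 37.4 and 31.5 CPM. It was higher with PAX5 by 1.19-fold (1.03 to 1.37), a log2 ratio of 0.25 (0.04 to 0.46). The median of its length bin was 0.10, and that value lay inside the interval.

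Of the delta-2 protocadherins, PCDH18 (Entrez 54510) had 342 and 276 counts, PCDH10 (Entrez 57575) 234 and 201, and PCDH8 (Entrez 5100) 185 and 144. Each had a ratio above 0, at 0.20 (-0.03 to 0.44), 0.11 (-0.17 to 0.39) and 0.26 (-0.07 to 0.58) on the log2 scale, and each interval included 0. Summed, the 11 non-clustered genes had 1232 and 1020 counts, a log2 ratio of 0.17 (0.05 to 0.29), 1.12-fold higher in the PAX5 library. The length bin of PCDH9, PCDH18 and PCDH10 had a median of 0.10, which lay inside that interval. For the 6 measured genes the median log2 ratio was 0.16, or 0.06 relative to features of like length.

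PCDH12 (Entrez 51294), a protocadherin best known from endothelium, had 9 counts with PAX5 and 26 without. Its log2 ratio of -1.64 (-2.91 to -0.50) was the lowest of the 24, 3.11-fold lower (1.41 to 7.54), and too few reads were counted to place it beyond 2-fold. The 7 endothelial markers listed summed to 11.6 CPM with PAX5 and 2.62 CPM without. Most of this came from ESAM (116 and 13 counts). Of the others, CLDN5 had 13 and 8 counts, VWF 7 and 7, EMCN 0 and 1, and KDR and ROBO4 1 and 0 each, while TEK and the endothelial cadherin CDH5 were at 0 in both. PCDH1 (Entrez 5097), which is found in airway epithelium, had 17 and 25 counts and a ratio of -0.66 (-1.64 to 0.28).

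Among the numbered cadherins, 3 of 23 were measured, 7 had 1 to 9 counts and 13 were at 0 in both libraries. CDH24 (Entrez 64403), a type II classical cadherin, had 132 and 134 counts, a log2 ratio of -0.13 (-0.49 to 0.23), and gave most of all cadherin counts (213 and 220). CDH23 (Entrez 64072), which forms the tip links of hair cells together with PCDH15, had 42 and 62 counts and was lower with PAX5, with a log2 ratio of -0.67 (-1.27 to -0.08). Its usual partner PCDH15 was at 0 in both. CDH3 (Entrez 1001), P-cadherin of epithelia, had 28 and 18 counts and a ratio of 0.53 (-0.37 to 1.47).

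The best known adhesion cadherins were at or near 0. CDH1 (E-cadherin) and CDH2 (N-cadherin) each had 0 counts with PAX5 and 1 without, CDH4 had 4 and 1, CDH15 had 3 and 2, and CDH12 had 0 and 1. CDH26 and the intestinal cadherin CDH17 each had 2 and 0. CDH5 (VE-cadherin), CDH11, CDH13 and 10 others had 0 in both.

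Per length, PCDHGC3 stood first in both libraries. In CPM per kilobase of deposited length, its level was 10.9 (exact Poisson 95% interval 10.1 to 11.8) in the control library, above PCDH9 at 5.06 (4.54 to 5.62) without overlap. In the PAX5 library PCDHGC3 was at 6.36 (5.73 to 7.03) and PCDH9 at 6.01 (5.47 to 6.60), and these did not differ beyond their intervals. PCDH18 followed at 4.87 with PAX5 and 4.23 without, and its control interval (3.75 to 4.76) overlapped that of PCDH9. In the control library, CDH24 (3.41), PCDH8 (3.26), PCDHGA11 (3.14) and PCDH10 (3.11) could not be ordered within their intervals. PCDHGB2 (1.88) and PCDHGC4 (1.60) came next, and the remaining 15 lay under 1 in both libraries, down to PCDHGA7 at 0.120 with PAX5 and PCDHGA1 at 0.0778 in the control. The deposited lengths of gamma genes include the shared exons. In CPM per kilobase of own exon in GENCODE v29, PCDHGC3 was at 12.4 with PAX5 and 21.4 without, PCDHGA11 at 4.95 and 6.75, and PCDHGB2 at 3.86 and 3.59. These levels take every counted read of a row to lie in its own exon, which is not known.

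**Figure D4:**
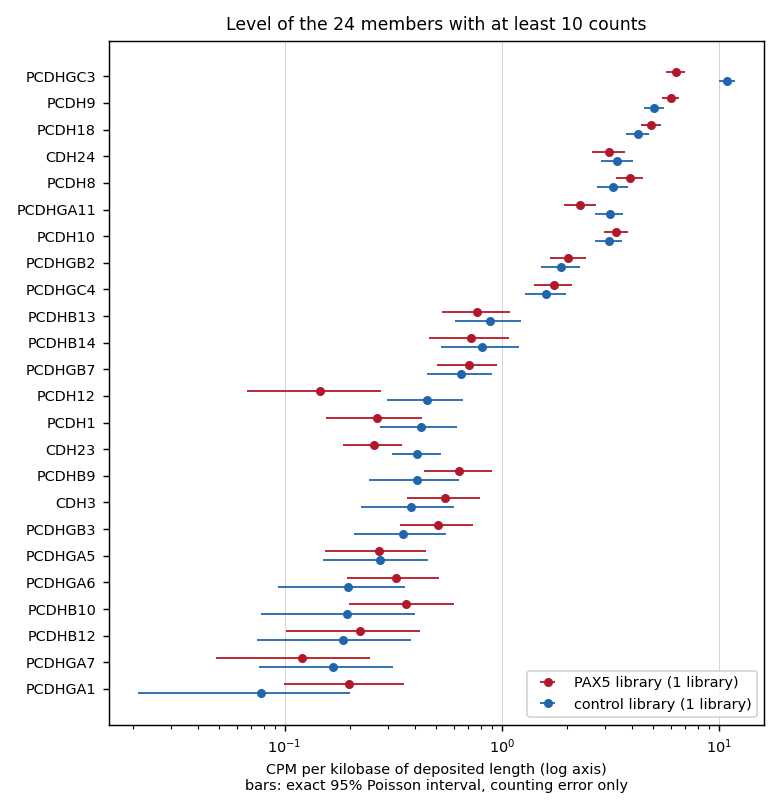
Level of the 24 measured cadherin and protocadherin genes in CPM per kilobase of deposited length (horizontal log axis), in the PAX5 library and the control library. Points are 1 library each and bars are exact 95% Poisson intervals; PCDHGC3 is first in the control library at 10.9 and level with PCDH9 in the PAX5 library.

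Catenins link classical cadherins to actin, and their counts ranged from those of JUP to 0, with CTNNA2, CTNNA3 and CTNND2 at 0 in both libraries. Of 15 catenins, plakophilins and linkers listed, 10 were measured, none passed the rule, 5 had intervals above 0 and 2 below, and the median log2 ratio was 0.11. JUP (plakoglobin) had 7439 and 6560 counts and a log2 ratio of 0.08, CTNNA1 (alpha-catenin) 4133 and 3439 with 0.16, and CTNNB1 (beta-catenin) 1845 and 1544 with 0.15. CTNNAL1, an alpha-catenin relative, had 2283 and 2264 counts and -0.09. The linker afadin (AFDN, 1483 and 755 counts) had a log2 ratio of 0.87, with an interval from 0.74 to 1.00. ARVCF, a relative of p120-catenin, had 264 and 127 counts and a ratio of 0.95 (0.64 to 1.27). CTNND1, p120-catenin itself, had 142 and 109 counts. Vinculin (VCL), with 1120 and 1344 counts, lay on the other side at -0.37 (-0.48 to -0.25). Here and in the lists below, AFDN, ARVCF, CTNND1, VCL, CTNNA2, CTNNA3, CTNND2, CTCF, SMCHD1, PTK2, PTK2B and RELL2 are named beyond the most counted genes, after their values were seen.

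Other cadherin-superfamily genes were better represented than the numbered cadherins. Of 7 desmosomal cadherins, DSG2 had 1332 and 1313 counts, DSC3 1197 and 1387, and DSC2 251 and 198, and the other 4 had 0 or 1 over both libraries. Their log2 ratios were -0.09, -0.32 (-0.43 to -0.21) and 0.24, so 1 of 3 intervals lay below 0 and none passed the rule. Of 18 large or distant relatives, 8 were measured, 4 had intervals above 0 and none below, and the median was 0.09, or -0.05 relative to features of like length. They were led by CLSTN1 (calsyntenin, 4013 and 3506 counts, log2 ratio 0.09), CELSR2 (a planar polarity receptor, 941 and 689 counts, 0.34), CLSTN3 (566 and 437 counts, 0.27) and DCHS1 (a Fat ligand, 216 and 135 counts, 0.57).

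Genes that act on cadherins went both ways. Of 10 measured genes for cadherin cleavage and turnover, none passed the rule of size, 5 had intervals above 0 and 3 below, and the median was 0.07. The sheddase ADAM10 had a log2 ratio of 0.15, the gamma-secretase subunit APH1A had -0.17, and the ubiquitin ligase CBLL1 had 0.16. Of 7 repressors of epithelial cadherin genes, 4 were measured with a median of 0.26. ZEB2 had 2222 and 2158 counts (log2 ratio -0.06), ZEB1 had 778 and 639 (0.18, interval 0.03 to 0.33), and SNAI3 and SNAI1 had at most 37 counts in a library, with ratios of 0.35 and 0.42 whose intervals included 0.

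Regulators of protocadherin cluster chromatin mostly had ratios a little above 0. Of 16 genes, 14 had intervals above 0 and none below, none passed the rule, and the median log2 ratio was 0.18, or 0.09 relative to features of like length. These genes are abundant, so their intervals are narrow. CTCF, which binds the protocadherin promoters, had a log2 ratio of 0.24, the cohesin subunits STAG2, RAD21 and SMC1A had 0.26, 0.13 and 0.16, SMCHD1, a silencer of clustered protocadherins, had 0.33, and the DNA methyltransferase DNMT1 had 0.18. The protocadherin signalling partners went both ways, with 7 of 16 measured genes above 0 by their interval, 3 below and a median of 0.01, which was -0.017 with upper-quartile scaling and -0.01 relative to features of like length. The kinases PTK2 and PTK2B, which protocadherins bind, had log2 ratios of 0.33 and -0.25, and the WAVE complex genes WASF2, CYFIP2, NCKAP1L and ABI2 had 0.15, 0.17, -0.05 and 0.28.

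The genes beside or between the clusters on chromosome 5 ranged from more counts than any protocadherin to 0. Of 10 measured, none passed the rule, 1 interval lay above 0 and 4 below, and the median log2 ratio was -0.07, or -0.01 relative to features of like length. The least counted of the 10, RELL2, had 5 and 11 counts and a log2 ratio of -1.24 (-3.12 to 0.40). DIAPH1, beyond the gamma cluster, had 13271 and 13170 counts and a log2 ratio of -0.09. TAF7, between the beta and gamma clusters, had 2846 and 2340 counts and 0.18, while ZMAT2 and HDAC3 on the 2 sides had -0.14 and -0.15. The ratios of DIAPH1, TAF7, ZMAT2 and HDAC3 lay closer to 0 than that of PCDHGC3, whose interval did not overlap any of these 4.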

How the data were processed

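The authors deposited raw counts of reads per gene, with Entrez numbers and feature lengths in bases, for 2 libraries. The submitters' processing notes name featureCounts and hg19 (GRCh37). Neither the strand setting nor the aligner nor the handling of reads in shared exons is given in the sources used here. Overlapping or antisense genes therefore cannot be told apart. The series table and single-library files held the same 51404 values. Symbols came by Entrez number from RefSeq (GRCh38.p14), which matched 23696 of 25702 features. CDH4-AS2, an antisense RNA with 0 counts, is not a numbered cadherin by this rule. Coordinates printed are GRCh38, a build other than that of the counts.

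Libraries were scaled by TMM (edgeR 4.0.16, R 4.3.3, features with at least 10 counts). With 1 library per group there were no residual degrees of freedom for a gene test. Ratios have exact Clopper-Pearson 95% intervals conditional on the summed count (scipy 1.17.1). The intervals and floors cover counting error only, since PCR copies are not independent molecules. A gene was called when it had at least 10 counts and its bound reached 2-fold. On simulated data for this comparison, the rule recovered 89.5% of 200 genes changed 4-fold among 13528, with 1 false call. That share is for all 200 together, and recovery among genes with few counts was not tested separately. Spread between like cultures cannot be learned from 1 library per group. The 1 false call therefore does not give the rate of false calls between real cultures. Genes with at least 10 counts are described, with up to 4 of the most counted genes of each related list. The genes and lists were chosen with earlier results of these data known. Alternatives were other scalings, count minimums and fold sizes, a point ratio, centring on length, protein-coding genes only, and the single-library files. One gene of the cadherin cleavage and turnover list is counted in that list, but its own value is not reported here.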

Additional observations from a re-analysis of the deposited data

How the results depend on the processing

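No paired analysis was possible because each group has 1 library. The log2 ratio of each of the 24 measured genes moved by less than its counting interval under every alternative that kept it, and scaling by total counts or DESeq2 size factors, a 4-fold bound, the single-library files and protein-coding genes only moved no result past its limit. With a bound at 1.5-fold, 1 cadherin or protocadherin was called lower (PCDHGC3, 1 of the gamma genes) and 2 catenin-list genes higher. By a point ratio at 2-fold, 1 was called higher (PCDHGA1, 1 gamma gene) and 1 lower (PCDH12, 1 non-clustered gene), and 1 gene beside the clusters lower. Leaving out PCDHGC3, chosen after seeing the data, took the log2 ratio of the gamma sum from -0.40 to -0.020. Medians of related lists moved under upper-quartile scaling (catenins 0.082, chromatin regulators 0.15, signalling partners -0.017, genes beside the clusters -0.10), without a count minimum (other superfamily genes 0.18, genes beside the clusters -0.035), with a minimum of 50 (other superfamily genes 0.18, repressors 0.18, genes beside the clusters -0.035) and after centring on length (catenins 0.081, desmosomal cadherins -0.19, other superfamily genes -0.051, chromatin regulators 0.087, signalling partners -0.013, genes beside the clusters -0.014). The cause was not tested. Depth limits the counts: 14 of the 24 had under 100 counts.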
